A study of Mus musculus with 24 samples.

Results

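The genes described here encode subunits of the constitutive proteasome and, for 3 of them, chaperones that assemble its base. All are called subunits below for short, and all were taken by symbol from the liver mRNA count table. They are all rows named Psma, Psmb, Psmc or Psmd with a number, after Psmb8, Psmb9 and Psmb10 were set aside. That left 36 of 22429 genes, spread over 16 chromosomes. The liver of male F1 hybrid mice (C57BL6J/FVBN) was sequenced in 24 libraries, 4 in each of 6 groups. Samples are numbered within a group, and no label says whether each came from its own mouse, so the p-values reflect the spread among the samples as labelled, which may be technical.

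Of the 6 groups, 3 were Ercc1 d/-, a progeroid genotype with a truncated and a null allele of a DNA repair gene, present throughout the body. One of these was restricted by 30% and sampled at 16 weeks of age, one ate freely (ad libitum) to 16 weeks and one ate freely to 7 weeks. The other 3 groups were Ercc1 +/+ wild type, fed freely to 104 weeks, restricted by 30% to 16 weeks, or fed freely to 16 weeks. Restriction began at 7 weeks of age with 10% and reached 30% at 9 weeks. The mutant took 1.6 g of food a day under restriction and 2.3 g on free feeding, and the wild type 2.1 g and 3.0 g, so genotype and intake differ together on either diet. On the day of sacrifice no food was given before the livers were taken from the mice.

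The proteasome degrades proteins tagged with ubiquitin. Its 20S core is a barrel of alpha rings, which gate the entry, and beta rings, of which the products of Psmb6, Psmb7 and Psmb5 cut proteins after acidic, basic and hydrophobic residues. The 19S regulatory particle caps the barrel: a base with a ring of ATPases (Psmc genes) unfolds the substrate, and a lid, with the deubiquitinase encoded by Psmd14, removes the ubiquitin chain. Interferon exchanges the catalytic subunits for Psmb9, Psmb10 and Psmb8, which gives the immunoproteasome that makes peptides for class I antigen presentation. When proteasome activity is impaired, the transcription factor NFE2L1 raises most subunit genes together.

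Total counts ran from 13.3 to 20.6 M per library. Ercc1, the targeted gene (chromosome 7, 19344778 to 19356524 on GRCm38), averaged 1.55, 1.51 and 1.61 CPM (counts per M counts of the scaled library size) in the restricted mutant, the freely fed mutant at 16 weeks and the mutant at 7 weeks, and 3.11, 3.52 and 2.59 CPM in wild type at 104 weeks, restricted wild type and freely fed wild type at 16 weeks. Under restriction the mutant was lower (log2 fold change -1.18 ± 0.27 SE, edgeR adjusted p = 0.00330), and on free feeding the difference was not called (log2 fold change -0.78 ± 0.28, adjusted p = 0.0754). All 6 hepatocyte markers were detected at a high level in every group, whereas T and NK cell markers summed to at most 3.89 CPM in any library.

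Of the 36 genes, 34 passed the filter on low counts and were tested. Psma8, the testis form of an alpha subunit, had 129 counts over all 24 libraries, and Psmb11, the thymus form of a catalytic subunit, had 0. That allows up to 0.145 to 0.226 counts per M total counts per library, without scaling factors (3 counts, counting error only). These 2 genes were not tested. Below, levels are CPM on scaled library sizes, as mean ± SD of 4 libraries per group, log2 fold changes carry their standard error, and a gene is called where edgeR's adjusted p over 12690 genes is under 0.05.

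Psmd9 and Psmd14 had the widest ranges of group means among the 34 genes tested, 0.97 and 0.98 on the log2 scale, and their promoters are shown for this reason. The sequences are RefSeq's on GRCm38.p6, from 250 bases before to 50 bases after the start, and capitals mark motif matches: TGACNNNGC, the core of the antioxidant response element that NFE2L1 and NFE2L2 bind, in Psmd9 (chr5:123227940-123228239, plus strand), and CCAAT, the NF-Y box, read on either strand in Psmd14 (chr2:61711444-61711743, plus strand), where its last 2 matches overlap.
Psmd9: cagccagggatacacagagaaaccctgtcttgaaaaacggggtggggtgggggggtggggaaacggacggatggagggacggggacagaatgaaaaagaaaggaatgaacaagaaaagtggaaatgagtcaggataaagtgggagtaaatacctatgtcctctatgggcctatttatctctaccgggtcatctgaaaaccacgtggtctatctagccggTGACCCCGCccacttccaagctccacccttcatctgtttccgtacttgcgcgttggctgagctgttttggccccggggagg
Psmd14: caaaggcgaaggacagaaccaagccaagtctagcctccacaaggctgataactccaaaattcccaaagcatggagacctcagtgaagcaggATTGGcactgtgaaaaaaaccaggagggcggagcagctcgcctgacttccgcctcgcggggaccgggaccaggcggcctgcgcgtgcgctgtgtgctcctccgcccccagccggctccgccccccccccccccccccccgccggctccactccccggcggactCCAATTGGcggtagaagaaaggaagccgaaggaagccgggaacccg
RefSeq windows were found for 29 of the 36 genes, 31 windows in all. Searched on both strands, TGACNNNGC was in 5 of the 31 windows, those of Psmb5, Psmb6, Psmc6, Psmd12 and Psmd9, against 12.4% of 32851 windows of all genes. The ETS motif CCGGAAG was in 11 of 31, against 8.9% of all windows, CCAAT in 12 of 31, against 37.4%, and TATAAA in 3 of 31, against 13.6%. A match is a stretch of letters and not a shown binding site.

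Per kb of transcript, the ranges of subunit mRNA levels overlapped between many roles. Averaged over the 24 libraries and divided by the length of the main transcript, the 3 catalytic beta genes stood at 89.6 to 99.0 CPM per kb, the other beta genes at 42.0 to 94.6 and the alpha genes at 18.4 to 93.0 CPM per kb. The base ATPases stood at 31.0 to 70.8, the other base subunits at 29.0 to 61.0 and the lid subunits at 20.97 to 64.4 CPM per kb. The 3 chaperones that assemble the base and are not part of the finished particle, Psmd5, Psmd9 and Psmd10, were lower, at 5.23 to 13.2 CPM per kb. Without division by length, Psmd5 and Psmd9 averaged 33.2 and 34.3 CPM, near Psmb2 at 36.1 CPM and Psmd14 at 36.7 CPM. Psmd10 averaged 7.48 CPM.

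The 34 genes varied less than the median of all genes tested, both between groups and within them, without matching for level. The range of their 6 group means had a median of 0.44 on the log2 scale, from 0.21 for Psma6 to 0.98 for Psmd14, against a median of 0.72 over all 12690 genes tested. Their spread within groups was also narrower, with a median SD of 0.16 on the log2 scale, against 0.31 over all genes. Of 238 tests of a member, 6 comparisons of groups and the diet by genotype interaction, 9 were called. The 9 calls fell on 8 genes, and 26 genes were called in none.

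**Figure D1:**
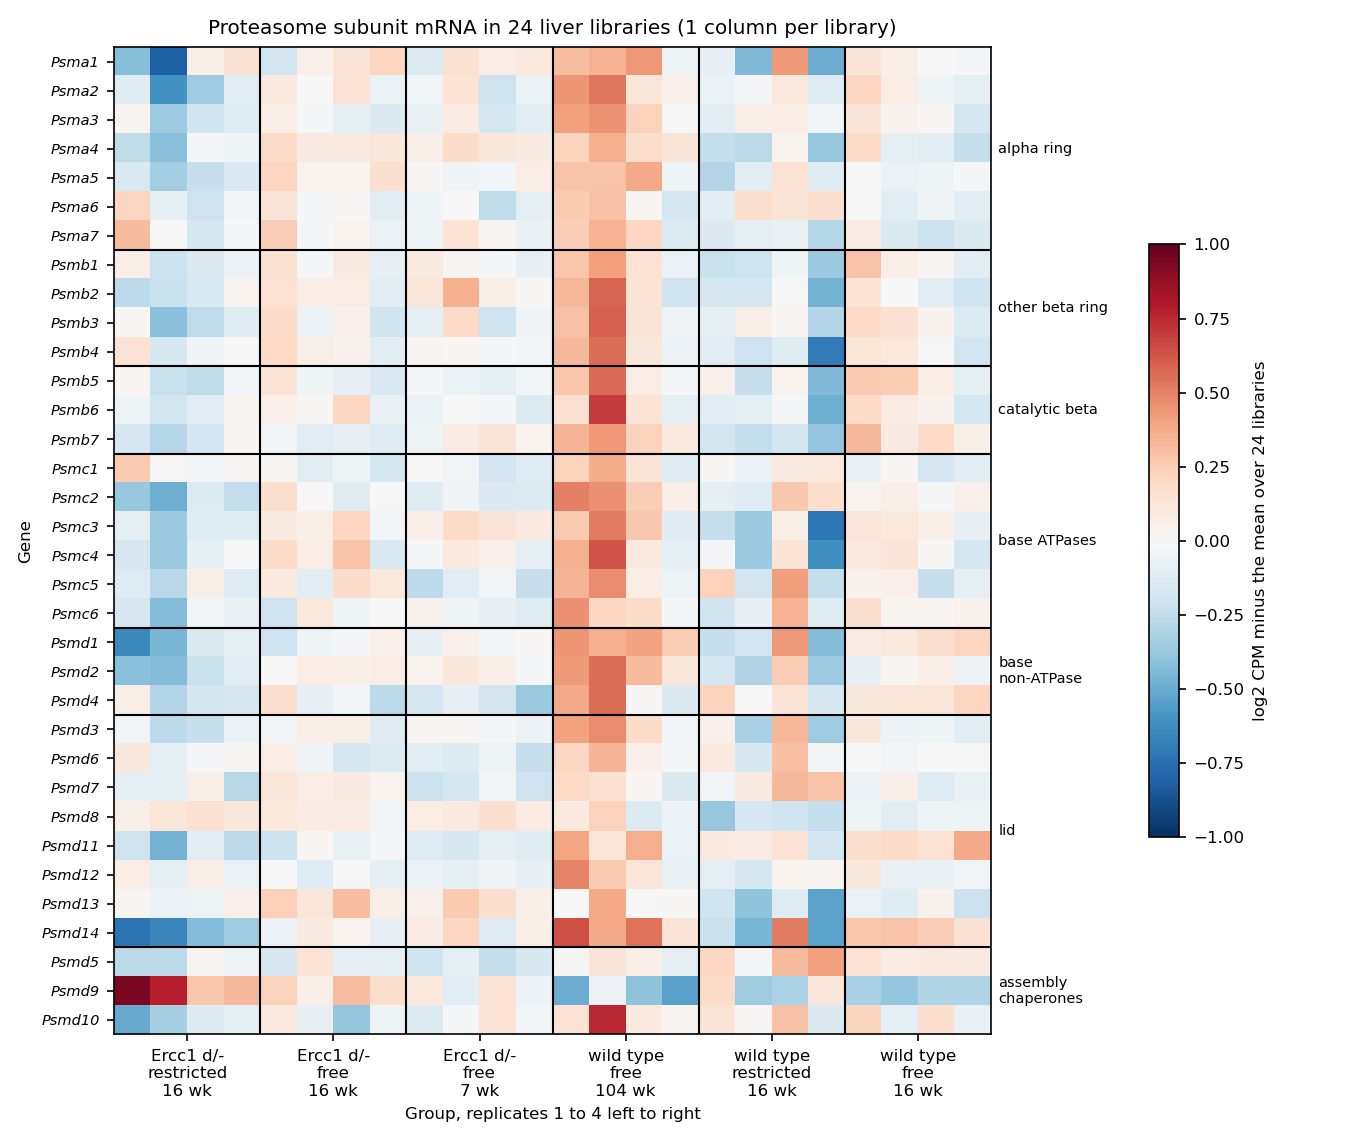
Each row is 1 of the 34 tested genes, grouped by role, and each column 1 library, with replicates 1 to 4 of a group from left to right. Colour gives log2 CPM minus the gene's mean over the 24 libraries. Red cells are concentrated in the first 3 libraries of wild type at 104 weeks, and in the restricted mutant Psmd9 is red and Psmd14 blue in all 4 libraries.

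The calls are given per comparison beside the share of all genes called. Mutant over wild type on free feeding had 1 gene higher and 0 lower of 34, where 9.94% of all genes were called, 5.1% higher and 4.85% lower. Mutant over wild type under restriction had 2 higher and 2 lower, against 18.3% of all genes, 9.58% higher and 8.7% lower. Wild type at 104 over 16 weeks had 1 higher and 0 lower, against 10.1%, 5.13% higher and 5.0% lower. Restricted over freely fed wild type had 0 higher and 1 lower, against 13.6%, 6.29% higher and 7.3% lower. Restricted over freely fed mutant had 0 higher and 2 lower, against 11.2%, 4.91% higher and 6.33% lower. These shares lie near or under those of all genes. Genes whose libraries did not overlap between 2 groups were counted as well. On free feeding the mutant had 1397 of 12690 genes wholly higher and 1452 wholly lower, with 4 and 4 of the 34 subunits. Under restriction these were 1100 and 902, with 3 and 1 subunits. Restriction gave 1037 and 1150 in wild type, with 0 and 2 subunits, and 981 and 1218 in the mutant, with 0 and 8. At 104 weeks they were 1042 and 1108, with 2 and 0.

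The mutant at 16 over 7 weeks had no subunit called by edgeR or by DESeq2, with 1 gene at an unadjusted p under 0.05, against 10.4% of all genes, and 0.686% of all genes were called, 0.355% higher and 0.331% lower. The interaction of diet and genotype likewise had none called by either tool, with 3 genes at an unadjusted p under 0.05, against 1.5% of all genes called, 0.906% higher and 0.591% lower, and 14.2% at that unadjusted p. Those 3 were Psmd7 (log2 difference of the effects -0.41 ± 0.15), Psmb7 (0.35 ± 0.14) and Psmc2 (-0.35 ± 0.16).

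**Figure D2:**
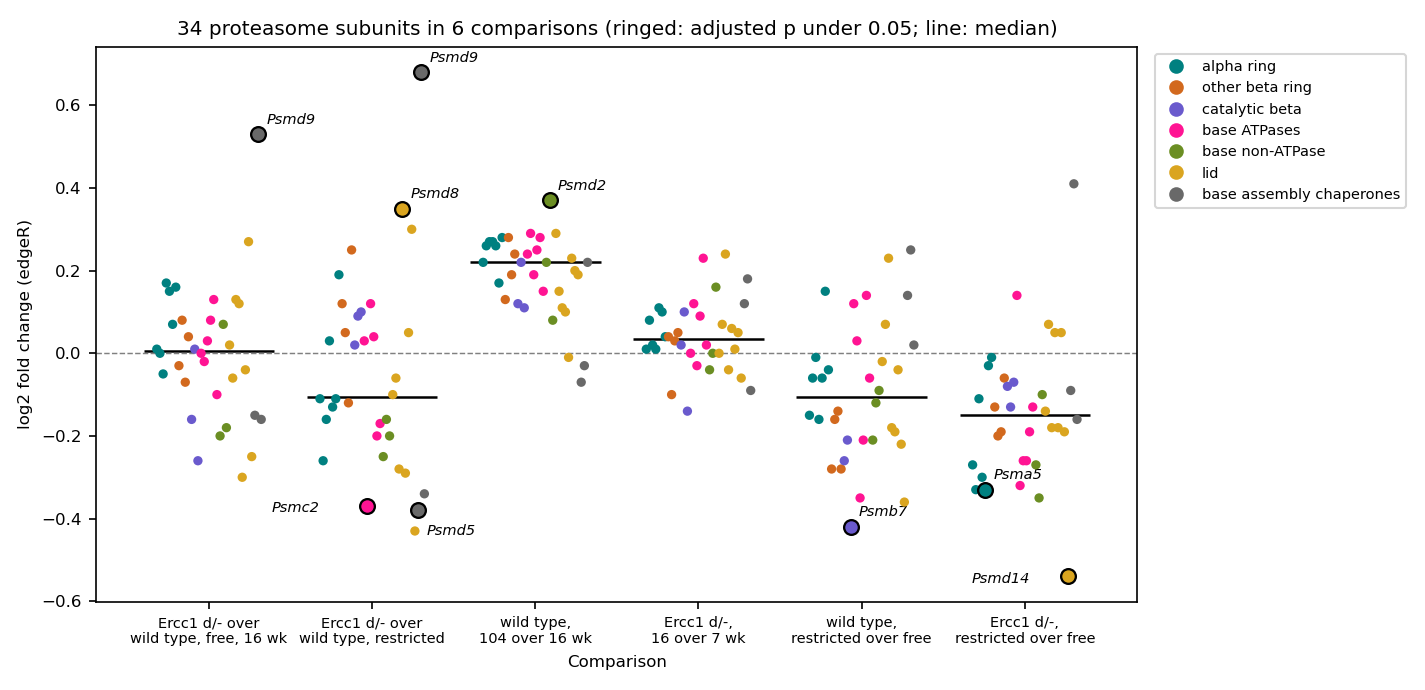
The vertical axis is the log2 fold change of 34 genes in 6 comparisons, coloured by role, with called genes ringed and named and the median drawn as a line. The medians lie between -0.15 and 0.22, and Psmd9 stands above all other subunits in both comparisons of mutant and wild type.

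Summed over the 36 genes, subunit mRNA in scaled CPM had its highest group mean in wild type at 104 weeks and its lowest under restriction. The sum was 2348.3 ± 143.5 CPM in the restricted mutant, 2573.5 ± 95.5 in the freely fed mutant at 16 weeks and 2508.3 ± 73.2 in the mutant at 7 weeks. In wild type it was 2968.3 ± 393.2 CPM at 104 weeks, 2390.0 ± 260.6 under restriction and 2578.9 ± 115.5 on free feeding at 16 weeks. Most pairs of groups overlap. In freely fed wild type the sums ran from 2488.3 to 3400.4 CPM at 104 weeks and from 2445.9 to 2722.2 CPM at 16 weeks. The restricted mutant, at 2142.2 to 2453.9 CPM, lay wholly below the 104-week libraries. Its 19S base and lid sum, at 1147.8 to 1297.6 CPM, lay below those of every group except restricted wild type. The nearest of these was the mutant at 7 weeks, from 1299.5 CPM. As a share of total counts, without scaling factors, the order of the 36-gene sum differed below wild type at 104 weeks, at 0.2744%. The freely fed mutant at 16 weeks averaged 0.2626%, the restricted mutant 0.2596% and freely fed wild type at 16 weeks 0.2505%. Restricted wild type and the mutant at 7 weeks both averaged 0.2434%. The balance of cap and core stayed close, with 19S base and lid genes at 1.23 to 1.33 times the 20S core genes in the 6 group means.

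**Figure D3:**
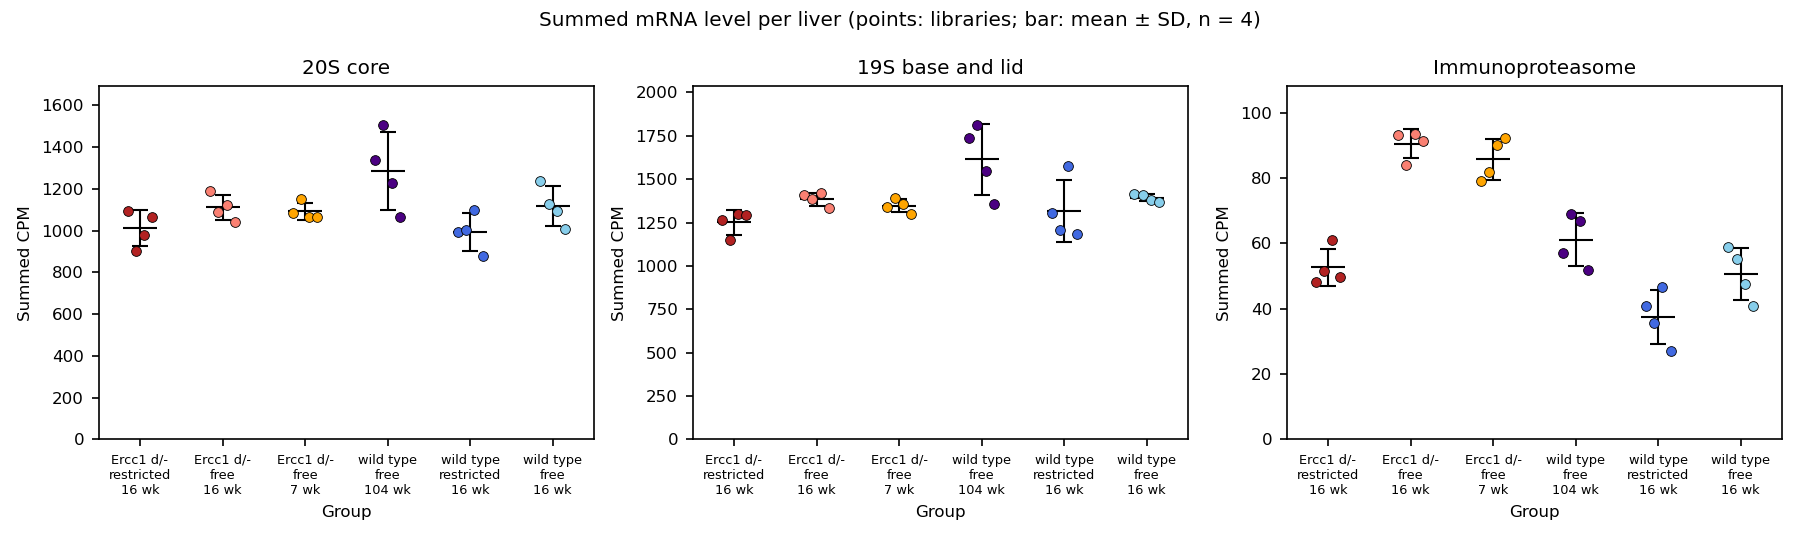
Points are the summed CPM of a library and bars the mean ± SD of the 4 libraries of a group, for the 20S core, the 19S base and lid, and the immunoproteasome. The core and cap sums overlap between most groups. The mean immunoproteasome sum is highest in the freely fed mutant at 16 weeks, at 84.0 to 93.4 CPM, and the mutant at 7 weeks overlaps it, at 78.95 to 92.11 CPM.

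At 104 weeks the subunits leaned upward as a whole, by a small amount each. Of 34 log2 fold changes against 16 weeks 31 were positive, with a median of 0.22, against 52.0% positive and a median of 0.02 over all genes. At an unadjusted p under 0.05, 10 genes were higher and 0 lower. Of all 12690 genes 24.5% passed in either direction, 1675 higher and 1436 lower. The highest group mean was at 104 weeks in 28 of 34 genes. The libraries carried this unevenly: 33, 33, 31 and 9 of the 34 genes were above their mean over all libraries in replicates 1 to 4. Replicates 1 and 2 also had the lowest scaling factors of the 24 libraries, 0.867 and 0.825, so their CPM were raised most by scaling. On total counts without scaling factors the median was 0.14, where the median of all genes was -0.04. Without replicate 2 the median was 0.11, and without replicate 4 it was 0.30 with 6 genes called higher, Psma3, Psma5, Psma7, Psmc1, Psmc2 and Psmd2. The 3 negative values were those of the chaperones Psmd5 (-0.07) and Psmd9 (-0.03) and of the lid gene Psmd11 (-0.01), none of them called.

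Markers of other cells moved in the same comparison. Of 10 macrophage markers all 10 values were positive and 3 were called higher, with a summed level of 147.1 to 266.0 CPM at 104 weeks, against 106.8 to 158.0 CPM at 16 weeks. The 1 tested marker of B and plasma cells was called higher (log2 fold change 3.10), and 1 of 5 stellate cell markers was called lower. Of 3 tested neutrophil markers 2 were called higher, S100a8 and S100a9. The third, Ly6g, was lower without a call, at 2.58 to 7.35 CPM against 7.51 to 10.0 CPM. The summed neutrophil level was 8.01 to 10.5 CPM, against 7.98 to 10.6 CPM, that of B and plasma cells 1.48 to 2.85 CPM, against 0.359 to 1.64 CPM, and that of stellate cells 86.4 to 126.5 CPM, against 92.1 to 185.6 CPM. No marker of these 4 lists was at 0 in all libraries of either group. Mitochondrial genes held 8.60 to 10.4% of counts at 104 weeks, against 10.7 to 11.8%, and Alb, the gene of serum albumin, 3.77 to 5.88%, against 6.42 to 7.72%, both without overlap. In scaled CPM Alb overlapped, at 36886.1 to 70159.0 against 65319.7 to 83941.4 CPM. Of the 6 hepatocyte markers, Alb among them, 3 log2 fold changes were positive and 3 negative, with 1 called higher and 0 lower. The part of these markers and shares in the upward lean was not tested.

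Of the catalytic genes, Psmb7 (ENSMUSG00000026750, chromosome 2, 38588036 to 38644087, minus strand), whose product cuts after basic residues, fell under restriction in wild type. Psmb7 stood at 93.7, 89.8, 93.5 and 80.7 CPM in restricted wild type, against 133.2, 113.2, 121.6 and 110.8 CPM in freely fed wild type. Every restricted library was below every freely fed one. The fold change on the log2 scale was -0.42 ± 0.10 (edgeR adjusted p = 0.00542), and the call held in all 15 alternatives run. In the mutant Psmb7 stood at 94.8, 87.2, 92.9 and 107.5 CPM under restriction and at 104.4, 98.0, 100.5 and 97.3 CPM on free feeding at 16 weeks, with overlap (log2 fold change -0.07 ± 0.10, adjusted p = 0.736). On free feeding the mutant libraries lay wholly below the wild-type ones without a call (log2 fold change -0.26 ± 0.10, adjusted p = 0.0962). Psmb7 shares 405 exon bases with Nek6 on the opposite strand, and whether the counting used strand is not given in the sources used here.

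Psmb5 and Psmb6, the other catalytic genes, were called in no comparison. Psmb5 averaged between 72.8 ± 11.5 CPM in restricted wild type and 94.6 ± 17.5 CPM at 104 weeks, and Psmb6 between 69.6 ± 9.53 and 93.4 ± 23.3 CPM in the same groups. Under restriction in wild type the beta ring gene Psmb1 was lower without passing the threshold, averaging 118.2 CPM where freely fed wild type had 143.5 CPM (-0.28 ± 0.11 on the log2 scale, adjusted p = 0.0947), and the base ATPase gene Psmc3 averaged 79.3 CPM where freely fed wild type had 100.9 CPM (-0.35 ± 0.13 on the log2 scale, adjusted p = 0.0857).

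In restricted wild type 1 library stood apart from the other 3. Replicate 3 had a cap to core ratio of 1.43, the highest of the 24 libraries, and its Psmd1 stood at 119.4 CPM where the others had 75.5, 77.3 and 65.5 CPM. Without it 4 genes were called lower under restriction in wild type, Psmb7, Psmc3, Psmd1 and Psmd14, and the median over the 34 genes was -0.19 in place of -0.10. Without replicate 4 the median was -0.04 and Psmb7 was the single call.

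Among the alpha genes, Psma5 (chromosome 3, 108256926 to 108279974, plus strand), a subunit of the gate ring, fell under restriction in the mutant. It stood at 35.0, 30.6, 33.0 and 34.9 CPM in the restricted mutant, against 45.1, 39.8, 39.8 and 43.5 CPM in the freely fed mutant at 16 weeks. The groups did not overlap, with a log2 fold change of -0.33 ± 0.11 (edgeR adjusted p = 0.0421). The call rests close to the threshold: 13 of 15 alternatives ended it, with adjusted p between 0.0525 and 0.258, every omission of 1 of the 8 libraries among them. Psma5 also has 2 processed pseudogenes at least 95% identical over 200 bases or more, with which reads could be shared. Psma2, another alpha gene, had a log2 fold change of -0.33 in the same comparison without passing.

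Of the base ATPase genes, Psmc2 (chromosome 5, 21785283 to 21803787, plus strand) was lower in the mutant when both genotypes were restricted. Its libraries stood at 60.3, 56.0, 71.4 and 66.1 CPM in the restricted mutant, against 73.3, 71.5, 94.3 and 88.3 CPM in the restricted wild type. The groups did not overlap, but 71.4 and 71.5 CPM nearly met. By edgeR the log2 fold change was -0.37 ± 0.11 (adjusted p = 0.0250), and the call was lost in 7 of 15 alternatives, with adjusted p between 0.0583 and 0.201. The libraries whose omission ended it were mutant replicates 1 and 2 and wild-type replicates 3 and 4, all restricted. On free feeding Psmc2 stood at 79.2 ± 6.74 CPM in the mutant and 80.1 ± 2.11 CPM in the wild type at 16 weeks (log2 fold change -0.02 ± 0.11). At 104 weeks it averaged 98.3 ± 13.5 CPM and was not called against 16 weeks (log2 fold change 0.29 ± 0.11, adjusted p = 0.0997).

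Psmd2 (chromosome 16, 20651652 to 20663414, plus strand), the large scaffold subunit of the base, was the one gene called at 104 weeks. It stood at 227.8, 249.4, 210.6 and 183.6 CPM at 104 weeks, against 159.9, 172.9, 177.9 and 162.8 CPM at 16 weeks in freely fed wild type. All 4 old libraries were above all 4 young ones. The log2 fold change was 0.37 ± 0.12 with an adjusted p of 0.04999, at the edge of the threshold, and 11 of 15 alternatives ended the call, with adjusted p between 0.0664 and 0.191. Omitting any library but replicate 4 at 104 weeks was among these. Reads may be shared with the pseudogene Gm5422, 96.4% identical over 2726 bases. Psmd1, the other large scaffold gene, also had no overlap, at 105.7 to 120.2 CPM against 93.7 to 102.6 CPM, and was not called; 8.21% of all genes lay wholly higher in this comparison. Next in order of p were Psmc2, Psma5 (log2 fold change 0.26 ± 0.11, adjusted p = 0.119) and Psma3 (0.27 ± 0.11, adjusted p = 0.124).

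In the lid, Psmd8 (chromosome 7, 29174188 to 29180701, minus strand), whose product helps hold lid and base together, was higher in the mutant under restriction. Psmd8 stood at 102.7, 107.4, 109.6 and 106.6 CPM in the restricted mutant, against 76.0, 87.7, 86.1 and 83.8 CPM in the restricted wild type. All 4 restricted mutant libraries were above all 4 restricted wild-type ones. The fold change on the log2 scale was 0.35 ± 0.09 (adjusted p = 0.00696), lost in 1 of 15 alternatives, the fit to these 2 groups alone (adjusted p = 0.0946). On free feeding at 16 weeks the mutant libraries also lay above the wild-type ones, at 103.0 ± 4.10 against 94.5 ± 2.37 CPM, without a call (log2 fold change 0.12 ± 0.09, adjusted p = 0.425).

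Psmd14 (ENSMUSG00000026914, chromosome 2, 61711694 to 61800376, plus strand), the deubiquitinase of the lid whose promoter is printed above, fell under restriction in the mutant. It stood at 21.3, 22.5, 26.3 and 27.8 CPM in the restricted mutant, against 34.2, 37.8, 36.5 and 33.7 CPM in the freely fed mutant at 16 weeks. No library of the groups overlapped, and the log2 fold change was -0.54 ± 0.17 (adjusted p = 0.0377). Of 15 alternatives 8 ended the call, with adjusted p between 0.0525 and 0.173, among them the omission of any freely fed library or of restricted replicate 1 or 2. In restricted wild type the values were 30.5, 25.7, 50.8 and 24.6 CPM, against 43.2, 43.4, 42.3 and 39.6 CPM in freely fed wild type. Here 3 libraries were low and replicate 3 was above all freely fed ones, and the difference was not called (log2 fold change -0.36 ± 0.17, adjusted p = 0.163). The interaction of diet and genotype was not called for Psmd14 (log2 difference -0.18 ± 0.24, adjusted p = 0.786).

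The lid genes Psmd13, Psmd11 and Psmd7 were named by the size of their p and not called. Psmd13 lay higher in the mutant on both diets with no overlap between groups, at 66.0 ± 5.23 against 54.6 ± 4.18 CPM on free feeding (log2 fold change 0.27 ± 0.11, adjusted p = 0.125) and 57.7 ± 2.22 against 46.9 ± 6.05 CPM under restriction (0.30 ± 0.11, adjusted p = 0.0616). DESeq2 called it under restriction. Of all 12690 genes, 1397 lay wholly higher in the mutant on free feeding and 1100 under restriction. Psmd13 shares 342 exon bases with Sirt3 on the opposite strand. Psmd11 was lower in the freely fed mutant, at 50.8 to 60.0 against 65.2 to 76.8 CPM (log2 fold change -0.30 ± 0.11, adjusted p = 0.0982). Psmd7, the inactive partner of the deubiquitinase, averaged 57.4 ± 1.36 CPM at 16 weeks and 48.7 ± 3.00 CPM at 7 weeks in the freely fed mutant (0.24 ± 0.10, adjusted p = 0.414), and 61.4 against 52.5 CPM in restricted and freely fed wild type (0.23 ± 0.10, adjusted p = 0.149). In the age comparison of the mutant the next by p were Psmc5 (0.23 ± 0.14, adjusted p = 0.607) and Psmb7 (-0.14 ± 0.10, adjusted p = 0.691).

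Psmd9 (ENSMUSG00000029440, chromosome 5, 123169413 to 123250131, plus strand), a chaperone that binds base ATPases during assembly and leaves before the particle is complete, was higher in the mutant on both diets. On free feeding at 16 weeks Psmd9 stood at 38.8, 34.7, 41.1 and 37.5 CPM in the mutant, against 26.5, 25.3, 26.9 and 26.9 CPM in the wild type. Under restriction it stood at 63.6, 56.7, 40.1 and 41.5 CPM in the mutant, against 37.6, 25.9, 26.6 and 35.8 CPM in the wild type. Neither pair of groups overlapped. By edgeR the log2 fold change was 0.53 ± 0.15 on free feeding (edgeR adjusted p = 0.0253) and 0.68 ± 0.15 under restriction (adjusted p = 0.00237). These pairs share no library.

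Within the mutant, Psmd9 averaged 50.5 ± 11.6 CPM under restriction and 38.0 ± 2.64 CPM on free feeding, with overlap short of a call (log2 fold change 0.41 ± 0.15, adjusted p = 0.0787). On total counts and with upper quartile scaling this difference was called. Replicates 1 and 2 of the restricted mutant were the highest of all 24 libraries. At 7 weeks the mutant already averaged 33.7 ± 2.84 CPM, and the change to 16 weeks was 0.18 ± 0.15 on the log2 scale (adjusted p = 0.749). At 104 weeks wild type had 25.8 ± 4.18 CPM, against 26.4 ± 0.723 CPM at 16 weeks (log2 fold change -0.03 ± 0.15, adjusted p = 0.919).

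The call for Psmd9 on free feeding was lost in 6 of 15 alternatives, with adjusted p between 0.0538 and 0.0746, each time by leaving out 1 library: mutant replicate 1 or 3, or any of the 4 wild-type libraries. The log2 fold change stayed between 0.49 and 0.60. Under restriction the single loss, at an adjusted p of 0.0607, was in the fit to these 2 groups alone. Psmd9 shares 1849 of its 7248 exon bases with Gm26745, a non-coding RNA on the opposite strand that is not analysed here, so reads of that RNA cannot be told apart from Psmd9 unless counting used strand.

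Of the other base chaperones, Psmd5 (chromosome 2, 34849734 to 34874968, minus strand) was lower in the mutant under restriction, at 27.3, 27.3, 33.6 and 31.9 CPM in the mutant, against 38.0, 32.8, 41.1 and 43.8 CPM in the wild type. The mutant's highest library exceeded the wild type's lowest. The log2 fold change was -0.38 ± 0.11 (adjusted p = 0.0156), and 5 of 15 alternatives ended the call, with adjusted p between 0.0502 and 0.200, including the omission of mutant replicate 2 or wild-type replicate 4. Psmd10, the chaperone also known as gankyrin, was the lowest of the tested genes per kb and averaged 6.17 ± 0.803 CPM in the restricted mutant and 8.98 ± 2.30 CPM at 104 weeks, with no call in any comparison.

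**Figure D4:**
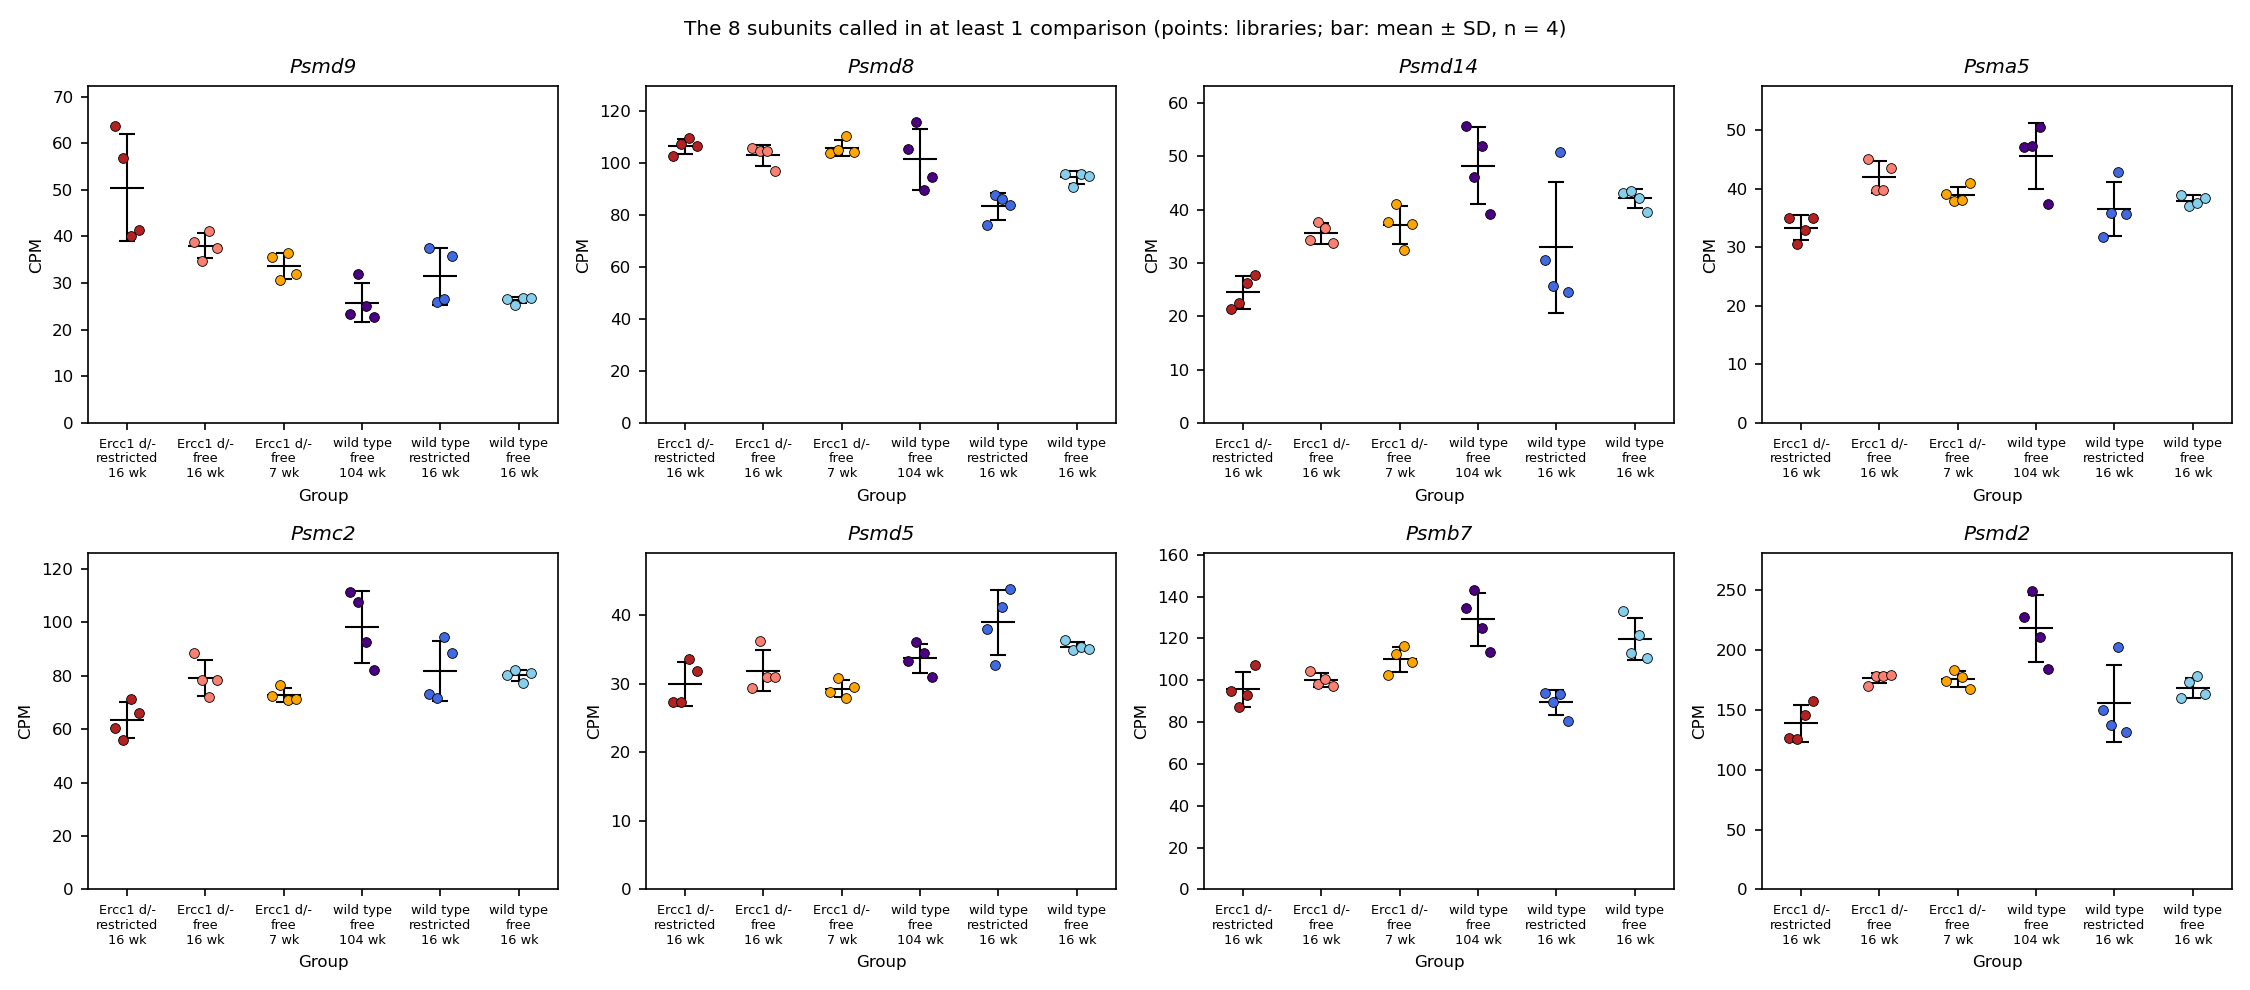
CPM of the 8 genes called in at least 1 comparison, with points for libraries and bars for the mean ± SD of the 4 libraries of a group, on axes that start at 0. Psmd9 is higher in both mutant groups at 16 weeks than in their wild-type counterparts, and Psmd14 has 1 high library, at 50.8 CPM, in restricted wild type.

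In the mutant, restriction was accompanied by a downward lean of the subunits. Of 34 log2 fold changes against free feeding 29 were negative, with a median of -0.15, against 50.4% positive and a median of 0.00 over all genes. Besides Psmd14 and Psma5, lower values that did not pass were those of Psmd2 (138.6 against 176.2 CPM, log2 fold change -0.35 ± 0.12, adjusted p = 0.0659) and Psmc2 (63.4 against 79.2 CPM, -0.32 ± 0.11, adjusted p = 0.0691). In all, 8 genes lay wholly below the freely fed libraries, where 9.6% of all genes did. The median itself and the calls depended on the scaling. On total counts the median of the 34 genes was -0.03 while that of all genes was 0.12, so the subunits were again below the rest, and 0 genes were called lower. In wild type 25 of 34 values were negative, against 53.9% positive over all genes, with a median of -0.10 against 0.04, and on total counts -0.03 against 0.10. The make-up of the libraries moved with restriction too. Mitochondrial genes held 13.5 to 15.01% of counts in the restricted mutant, against 9.37 to 10.9% in the freely fed mutant, and 12.5 to 16.9% in restricted wild type, against 10.7 to 11.8% in freely fed wild type. Alb held 8.14 to 9.98%, against 5.36 to 6.65%, in the mutant and 8.88 to 12.0%, against 6.42 to 7.72%, in wild type. None of these pairs overlapped. The other hepatocyte markers did not all move with Alb. Of the 6, Alb among them, 4 log2 fold changes were positive and 2 negative in each genotype. In the mutant 1 was called higher and 2 lower, and in wild type 1 higher and 0 lower. The part of these shares and markers in the lean was not tested.

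The immunoproteasome genes were measured beside them, and Psmb8 and Psmb9 were higher in the freely fed mutant and lower again under restriction. Psmb8 (chromosome 17, 34197721 to 34201454, plus strand) stood at 45.4, 39.9, 47.8 and 43.0 CPM in the freely fed mutant at 16 weeks, against 23.7, 23.0, 17.96 and 18.4 CPM in the wild type. The mutant libraries were all far above the wild-type ones (log2 fold change 1.08 ± 0.14, adjusted p = 1.458e-05). Psmb9 (chromosome 17, 34181987 to 34187764, minus strand) averaged 16.9 ± 1.41 against 9.22 ± 1.49 CPM (0.87 ± 0.28, adjusted p = 0.0436) and Psmb10 29.6 ± 1.89 against 20.6 ± 4.31 CPM (0.52 ± 0.16, adjusted p = 0.0436). The calls of Psmb9 and Psmb10 were lost in 9 and 8 of 15 alternatives, and that of Psmb8 in none. Omitting 1 library ended the call of Psmb9 for each of the 8 libraries, and that of Psmb10 for each except wild-type replicate 1, with adjusted p up to 0.133 and 0.162. Psmb9 shares 212 of its 3660 exon bases with Tap1 on the opposite strand, which averaged 24.2 CPM in the freely fed mutant and 19.2 CPM in the wild type (log2 fold change 0.34 ± 0.26, not called). Psmb8 shares 498 of 3381 exon bases with the antisense gene Gm20496, which is not analysed here, so without strand such reads cannot be told apart.

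In the mutant Psmb8 and Psmb9 fell under restriction. Psmb8 stood at 21.9, 25.2, 27.3 and 22.7 CPM in the restricted mutant, below all 4 freely fed libraries (log2 fold change -0.86 ± 0.14, adjusted p = 0.000170). Psmb9 stood at 4.73, 6.11, 6.88 and 7.26 CPM, against 15.7, 15.9, 17.4 and 18.7 CPM on free feeding (-1.44 ± 0.28, adjusted p = 0.00102). Psmb10 averaged 22.1 ± 3.23 against 29.6 ± 1.89 CPM and was not called (-0.42 ± 0.16, adjusted p = 0.104).

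In wild type Psmb8 also fell, to 14.5 ± 2.06 CPM under restriction, against 20.8 ± 2.99 CPM on free feeding (log2 fold change -0.52 ± 0.14, adjusted p = 0.0180). That call was lost in 5 of 15 alternatives, among them without restricted replicate 4 or freely fed replicate 1 or 2, with adjusted p up to 0.0728. Psmb9 (-0.59 ± 0.28, adjusted p = 0.169) and Psmb10 (-0.28 ± 0.17, adjusted p = 0.277) were not called there. Between restricted mutant and restricted wild type Psmb8 was higher (0.74 ± 0.14, adjusted p = 0.000754), while Psmb9 (0.03 ± 0.29, adjusted p = 0.963) and Psmb10 (0.38 ± 0.17, adjusted p = 0.111) were not called. None of the 3 was called between 104 and 16 weeks (0.22, -0.01 and 0.43), between 16 and 7 weeks in the mutant (0.26, -0.22 and 0.02) or for the interaction (-0.34, -0.85 and -0.14, for Psmb8, Psmb9 and Psmb10).

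Set against the constitutive subunit each replaces, per length of the main transcript, Psmb8 was 31.3 ± 3.33% of Psmb5 in the freely fed mutant at 16 weeks and 13.1 ± 0.878% in the wild type. Psmb9 was 12.4 ± 1.68% of Psmb6, against 6.75 ± 0.705%, and Psmb10 was 26.1 ± 1.18% of Psmb7, against 15.1 ± 2.32%. All 3 ratios separated the groups, each with p = 0.0286 in a two-sided exact permutation test of the log2 ratio, the lowest p that 4 against 4 libraries allow. Adjusted over 18 tests of 3 ratios in 6 comparisons these were 0.0858, short of 0.05. Restriction in the mutant brought Psmb8 to 18.5 ± 3.55% of Psmb5 and Psmb9 to 4.98 ± 0.868% of Psmb6, without overlap with free feeding (exact permutation p = 0.0286, adjusted 0.0858 for both). Psmb10 to Psmb7 overlapped in that comparison (log2 difference -0.36, exact permutation p = 0.0857, adjusted 0.154). Between genotypes under restriction Psmb8 to Psmb5 did not overlap (0.72, exact permutation p = 0.0286, adjusted 0.0858), while Psmb9 to Psmb6 (0.14, exact permutation p = 0.83) and Psmb10 to Psmb7 (0.31, exact permutation p = 0.143) did. These ratios were chosen after the values were seen.

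**Figure D5:**
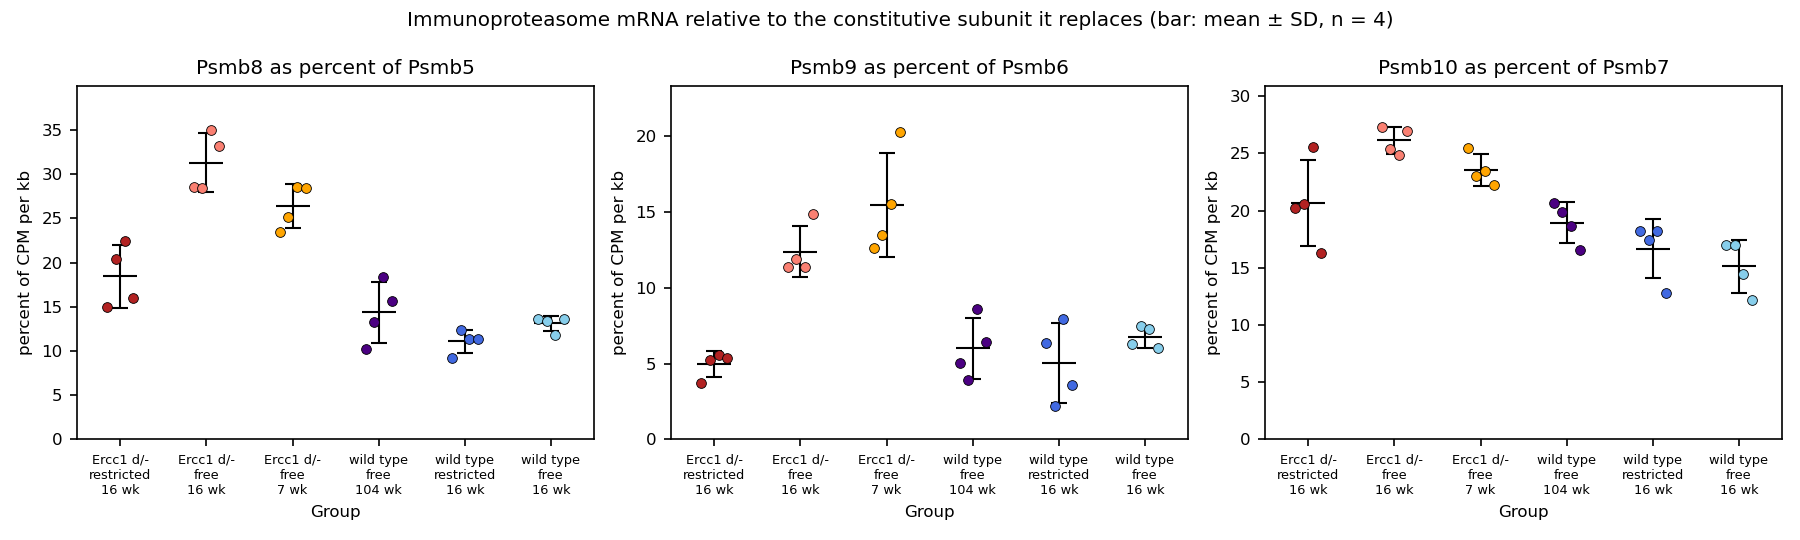
Points give, for each library, the level of an immunoproteasome gene as a percent of the constitutive gene it replaces, both in CPM per kb of the main transcript, and bars the mean ± SD of 4 libraries. Freely fed mutant libraries at 16 weeks lie above the freely fed wild-type ones in all 3 panels, at 28.5 to 35.1% against 11.8 to 13.7% for Psmb8.

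Macrophage markers moved with genotype too. Of 10 markers, 6 were higher in the mutant on free feeding and 10 under restriction, none lower. Their summed level was 238.4 to 339.4 CPM in the restricted mutant and 155.3 to 315.9 CPM in the freely fed mutant at 16 weeks, against 83.5 to 146.7 and 106.8 to 158.0 CPM in restricted and freely fed wild type, and no marker of the list was at 0. In the mutant under restriction, where Psmb8 and Psmb9 fell, 1 of the 10 was higher and none lower than on free feeding. T and NK cell markers were at a low level. They summed to 0.972 to 1.52 CPM in the restricted mutant and 1.48 to 3.02 CPM in the freely fed mutant at 16 weeks. Freely fed wild type had 0.891 to 1.74 CPM. Of the markers other than Cd4, Cd2, Cd3d, Cd3e, Cd3g, Trac and Gzma averaged lower in the freely fed than in the restricted mutant. Nkg7 and Cd8a averaged higher in the freely fed mutant, and none of these was tested. Cd4, the 1 of the 10 that was tested, averaged 0.153 CPM in the restricted mutant, 1.33 CPM in the freely fed mutant and 0.403 CPM in freely fed wild type. It was called higher in the mutant on free feeding (log2 fold change 1.70 ± 0.50, adjusted p = 0.0308) and lower in the restricted than in the freely fed mutant (-3.0 ± 0.57, adjusted p = 0.000745), while Klrb1c was at 0 in every library of both mutant groups and Cd3e in every library of the freely fed one. In bulk tissue a change in the number of a cell type and a change in RNA per cell cannot be told apart, and the part of macrophages and T or NK cells in the differences of Psmb8, Psmb9, Psmb10 and Psmd9 was not tested.

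Genes that work beside the proteasome were taken from lists of its partners. Of the activators and the inhibitor (5 genes), Psmf1, the inhibitor of the core, was higher in the mutant on free feeding, with 24.9 ± 2.36 CPM where wild type had 16.95 ± 2.63 CPM (0.56 ± 0.14 on the log2 scale, adjusted p = 0.0119), and under restriction, at 18.97 ± 2.96 against 13.5 ± 2.58 CPM (0.49 ± 0.14, adjusted p = 0.0190). The activator genes Psme1, Psme2, Psme3 and Psme4 were called in no comparison. Of 5 chaperones of core assembly, Pomp, the maturation factor of the beta rings, fell under restriction in the mutant, to 62.9 ± 4.50 against 87.2 ± 6.39 CPM (-0.47 ± 0.10, adjusted p = 0.00249), and in wild type, to 64.3 ± 5.19 against 89.5 ± 9.11 CPM (-0.48 ± 0.10, adjusted p = 0.00255). Psmg2 also fell in the restricted mutant (-0.50 ± 0.16, adjusted p = 0.0443). The other 4 comparisons of groups had no call in this list.

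Ubiquitin itself was lower under restriction in the transcript of Ubb, a gene that encodes a chain of ubiquitin repeats. Ubb averaged 1035.3 ± 128.4 CPM in the restricted and 1969.9 ± 87.6 CPM in the freely fed mutant (log2 fold change -0.93 ± 0.20, adjusted p = 0.00276), and 1133.6 ± 412.0 against 1898.8 ± 236.6 CPM in wild type (-0.74 ± 0.20, adjusted p = 0.0149). Rps27a, a ribosomal protein fused to ubiquitin, was higher in restricted wild type (0.61 ± 0.15, adjusted p = 0.0103) and at 104 weeks (0.51 ± 0.15, adjusted p = 0.0340), and Uba1, the main activating enzyme, was lower in the mutant under restriction (-0.29 ± 0.09, adjusted p = 0.0359). Of 7 other genes whose products belong to or bind the particle, Usp14, a deubiquitinase, was the one called, lower in restricted wild type (-0.41 ± 0.12, adjusted p = 0.0298). Of 8 shuttle and stress factors the one call was Zfand2a, lower in the mutant under restriction (-0.73 ± 0.19, adjusted p = 0.00827).

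The list of NFE2L1 and its partners held 5 genes. Nfe2l1, the factor that drives subunit genes, fell to 76.9 CPM at 104 weeks, against 114.7 CPM at 16 weeks in wild type (log2 fold change -0.58 ± 0.12, adjusted p = 0.00319). Vcp, the segregase that extracts it and other proteins from membranes, fell under restriction in the mutant (248.9 against 355.4 CPM, -0.51 ± 0.13, adjusted p = 0.0121) and in wild type (265.8 against 370.1 CPM, -0.48 ± 0.13, adjusted p = 0.0185). Nfe2l2, Ddi2 and Ngly1 were called in none of the 6 comparisons.

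Vcp also stands in the list of 17 tested genes for degradation from the endoplasmic reticulum, which feeds the proteasome. In the restricted mutant 6 of 17 fell against free feeding, among them Derl3 (log2 fold change -2.75 ± 0.81, adjusted p = 0.0297), Herpud1 (-1.59 ± 0.31, adjusted p = 0.00117) and the ubiquitin ligase Syvn1 (-1.41 ± 0.34, adjusted p = 0.00797). Against the restricted wild type 6 fell and 1 rose, with Derl3 (-2.52 ± 0.81), Herpud1 (-1.42 ± 0.31) and Syvn1 (-1.33 ± 0.34) again lower. Restricted wild-type replicate 3, the library that stood apart above, was the highest for Syvn1 and Derl3. Syvn1 stood at 33.2, 45.9, 67.6 and 62.1 CPM in the restricted mutant, against 74.4, 81.7, 283.0 and 85.7 CPM in restricted wild type, and without that replicate its value was -0.63 (adjusted p = 0.0530), not called. Derl3 stood at 0.642, 0.268, 0.583 and 0.130 CPM, against 0.617, 1.15, 6.61 and 1.27 CPM, and without that replicate its value was -1.26 (adjusted p = 0.271). The call of Derl3 was lost in 8 of 15 alternatives, among them the omission of any restricted mutant library, and that of Herpud1 in none. In restricted wild type 2 of 17 fell, Vcp and Herpud1 (-1.02 ± 0.30, adjusted p = 0.0272). At 104 weeks 4 rose and none fell, led by Edem2 (0.71 ± 0.16, adjusted p = 0.00394), Derl2 (0.50 ± 0.13) and Os9 (0.40 ± 0.10), and Edem2 was the one call between mutant and wild type on free feeding (0.51 ± 0.16, adjusted p = 0.0365).

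Of 10 genes of class I loading, which present what the immunoproteasome cuts, Tapbp was higher in the mutant on free feeding (log2 fold change 0.65 ± 0.11, adjusted p = 0.000311) and under restriction (0.37 ± 0.11, adjusted p = 0.0249). In the restricted mutant 3 fell against free feeding, the light chain B2m (-0.70 ± 0.13, adjusted p = 0.000468), the transporter Tap2 (-0.70 ± 0.15, adjusted p = 0.00239) and Tapbp (-0.39 ± 0.11, adjusted p = 0.0226). B2m was the one call in restricted wild type (-0.43 ± 0.13, adjusted p = 0.0262).

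The calls of partner genes differed in how many of 15 alternatives ended them. Psmg2 in the restricted mutant lost its call in 11 (adjusted p up to 0.167), Uba1 in the mutant under restriction in 10 (log2 fold change as small as -0.16, adjusted p up to 0.339), Usp14 in restricted wild type in 9 and Rps27a at 104 weeks in 7. Losses in 6 were found for Derl3 in the restricted mutant and for Herpud1 and B2m in restricted wild type, and in 5 for Vcp in restricted wild type, Edem2 on free feeding and Tapbp in the restricted over the freely fed mutant. Psmf1 and Tapbp between genotypes under restriction lost theirs in 4, Derl2 at 104 weeks in 2, and Psmf1 on free feeding, Zfand2a, Ubb in wild type and Vcp in the mutant in 1 each. The calls of Pomp, Nfe2l1, Tap2, Os9, Edem2 at 104 weeks, Rps27a in restricted wild type, Tapbp on free feeding, and Ubb, Herpud1, Syvn1 and B2m in the restricted over the freely fed mutant held in all 15. In the losses of Psmg2, Uba1, Usp14 and Rps27a, 7, 6, 6 and 6 were the omission of 1 library.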

How the data were processed

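The submitters deposited raw counts of reads per gene and library, with no normalization, and a length per gene. Trimmomatic 0.39, STAR 2.7.0f, Subread 1.6.4 with its program featureCounts, and the build GRCm38.p6 are named in the submitters' processing notes. Neither the handling of multi-mapped reads nor a strand setting is given in the sources used here. The deposited length, another number per gene, equalled the annotated end minus start in 97.8% of genes and was used only for that check. Positions, exons and main transcripts come from GENCODE M21 on GRCm38, to which all 22429 genes were matched by identifier, and CPM per kb divides by the length of the main transcript.

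Counts were fitted with edgeR 4.0.16 in R 4.3.3: filterByExpr left 12690 genes, library sizes were scaled by TMM, and 1 model with 6 group means was fitted to 24 libraries (18 residual degrees of freedom, common dispersion 0.0493). Comparisons used the quasi-likelihood F test with robust estimation and Benjamini-Hochberg adjustment over all genes. DESeq2 1.42.0, other scalings, no filter, the compared groups alone, a replicate block and the omission of each library were alternatives, 15 for a comparison of 2 groups. The fitting steps were tested on simulated data. Replicates differed by more than sampling noise in every pair (chi-square over its degrees of freedom at least 8.77). The members and lists were chosen with earlier results of these data known. Members named are the called ones, up to 6 in each direction, or where fewer than 3 were called the 3 with the smallest p as well, and up to 3 called genes per list of partners. Some partner genes are not analysed here.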

Additional observations from a re-analysis of the deposited data

Results flagged for a closer look

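In 6 of 90 sets of 4 libraries 1 library lay far from the other 3, by Dixon's test at the 95% level, which chance gives in about 1 of 20 sets. Psmd2 in the freely fed mutant at 16 weeks was 169.8 CPM in replicate 1, where the highest library had 178.6 CPM. Psmd8 was 96.9 CPM in replicate 4 of the same group, against up to 105.9 CPM, and 91.0 CPM in replicate 2 of freely fed wild type at 16 weeks, against up to 95.9 CPM. The log2 ratio of Psmb8 to Psmb5 was -2.22 in replicate 3 of freely fed wild type at 16 weeks, where the highest was -2.02. That of Psmb9 to Psmb6 was -4.00 in replicate 1 of the restricted mutant, where the highest was -3.40, and that of Psmb10 to Psmb7 was -2.78 in replicate 4 of restricted wild type, where the highest was -2.28.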

How the results depend on the processing

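Counts of called subunits are small and moved with the processing; the causes were not tested. For mutant over wild type on free feeding, 1 gene was lower in the fit to the compared groups alone (Psmd11) and with DESeq2 (Psmb7). Under restriction the count higher was 5 on total counts and 0 in the compared groups alone, and the count lower was 0 on total counts, with upper quartile scaling and in the compared groups alone. At 104 over 16 weeks the count higher was 0 on total counts, with upper quartile scaling, with no filter and in the compared groups alone. In the mutant under restriction 1 gene, Psmd9, was higher on total counts and with upper quartile scaling, and the count lower was 0 in both and 1 with DESeq2's size factors in edgeR, with no filter and in the compared groups alone. On total counts the median log2 fold change was -0.03 there and 0.10 in the mutant at 16 over 7 weeks, and the median of all genes shifted to 0.12 for restriction in the mutant and 0.10 in wild type.

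Leaving out 1 library gave these ranges. On free feeding, mutant over wild type had 0 to 1 higher, 0 lower and medians of -0.02 to 0.04. Under restriction it had 2 to 3 higher, 0 to 3 lower and medians of -0.12 to 0.04, the last without wild-type replicate 3. At 104 over 16 weeks there were 0 to 6 higher, 0 lower and medians of 0.11 to 0.30. The mutant at 16 over 7 weeks had none called and medians of 0.01 to 0.07. Restriction gave 0 higher, 1 to 4 lower and medians of -0.19 to -0.04 in wild type, and 0 to 1 higher, 0 to 2 lower and medians of -0.18 to -0.11 in the mutant. The interaction had 0 calls and medians of -0.11 to 0.05. Values that changed sign were not called: Psmb9 in mutant over wild type under restriction (-0.20 to 0.39 over alternatives) and at 104 weeks (-0.21 to 0.07), Psmb10 in the mutant at 16 over 7 weeks (-0.03 to 0.09), Ercc1 there (-0.29 to 0.13) and in the mutant under restriction (-0.10 without freely fed replicate 2 or restricted replicate 3, up to 0.23), and the log2 ratios of Psmb8 to Psmb5 at 104 weeks (-0.02 without replicate 3, up to 0.26) and of Psmb9 to Psmb6 under restriction between genotypes (-0.20 without wild-type replicate 2, up to 0.41).

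The replicate numbers did not pair the libraries: over 60 same-number pairs the correlation of deviations ran from -0.36 to 0.42, and 8 of 24 libraries correlated best with their own number. With a replicate block the counts called were unchanged in all 7 contrasts, namely 1 higher on free feeding, 2 higher and 2 lower under restriction between genotypes, 1 higher at 104 weeks, 1 lower in restricted wild type, 2 lower in the restricted mutant and 0 in the other contrasts. Psma8 and Psmb11 did not pass the filter on low counts and were not tested.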
